A study of Homo sapiens with 6 samples.

Results

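Semaphorins are a family of ligands that steer growing axons and migrating cells, and plexins and neuropilins are their receptors. The genes described here were the rows of the deposited table named SEMA3 to SEMA7 with a letter A to G, PLXNA to PLXND with a digit, NRP1 or NRP2. This rule used names only and found 31 of 59151 genes, of which 20 encode semaphorins and 11 encode receptors (9 plexins and 2 neuropilins). Of these 31 genes, 24 averaged 1 FPKM or more across all 6 libraries and were tested, and 7 lay under that limit and are given by their levels alone.

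Semaphorins of class 3 are secreted, and most of them bind a neuropilin, which holds them to a plexin of the A group that carries the signal into the cell. Semaphorins of classes 4 to 6 span the membrane, SEMA7A is anchored to it by a lipid, and these mostly bind plexins directly. Plexins act on small GTPases and the cytoskeleton of the growth cone, and in the developing forebrain this signalling guides axons of cortical neurons and the migration of interneurons.

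RNA came from forebrain neuron progenitor cells at day 26, made from the H9 human embryonic stem cell line, so all groups share 1 line. The groups were cells with shRNA1 against circRTN4(2,3), cells with shRNA2 against the same circular RNA, and cells with a scrambled hairpin, with 2 libraries each. The genotype is given as knockdown for both hairpins and as wild type for scramble. circRTN4(2,3) is a circular RNA of the RTN4 gene, whose function the libraries were made to study. Whether the 2 replicates of a group are separate cultures is not stated, and every p-value here reflects a spread that could be technical.

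Values are FPKM, fragments scaled by gene length and by library total, which can be compared between genes of different length. Log2 fold changes are of FPKM + 1, which understates the fold changes of low genes. Read totals recovered from the values were 78.5 to 83.6 M reads in the hairpin libraries, and 46.6 and 77.2 M reads in scramble replicates 1 and 2. The scramble replicates were less alike than the replicates of either hairpin. On the log2 scale, the SD of replicates had a median over the 24 tested genes of 0.018 with shRNA1, 0.0401 with shRNA2 and 0.171 in scramble, and in 20 of the 24 the scramble SD was the largest. Levels were lower in scramble replicate 1 than in replicate 2 for 18 of the 24, or 75%, against 56.6% of all 18162 tested genes. RTN4 itself stood at 34.2 and 34.7 FPKM with shRNA1, 31.2 and 31.3 FPKM with shRNA2, and 40.3 and 38.5 FPKM in scramble. Gene-level FPKM joins linear and circular reads, so the depletion of the circular RNA was not measured.

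Markers of progenitors and of neurons were both abundant. The 8 neural progenitor markers summed to 163.2 and 163.3 FPKM with shRNA1, 171 to 174 FPKM with shRNA2 and 177 to 189 FPKM in scramble. These sums join genes that moved apart. PAX6, HES1, VIM and SLC1A3 were lower in both shRNA2 libraries than in scramble, as were 34.4% of all tested genes. NES and FABP7 were higher, as were 13.3% of all tested genes, and SOX2 and HES5 overlapped. The 7 neuron markers summed to 379 to 384 FPKM with shRNA1, 329 to 331 FPKM with shRNA2 and 363 to 368 FPKM in scramble. Of these, DCX and STMN2 were lower in both shRNA2 libraries than in scramble, SYT1 was higher, and the others overlapped. Endothelial markers, of a cell type known for semaphorin signalling, summed to at most 0.429 FPKM in any library, with PECAM1, CDH5 and VWF under 0.1 FPKM throughout. The 4 microglial markers found summed to at most 0.323 FPKM.

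Transcripts of most of the family were found at low to moderate levels, with SEMA3C far above the other ligands. Of the 31 genes, 6 averaged at least 5 FPKM over the 6 libraries (2 ligands and 4 receptors), 12 averaged 2 to 5 FPKM, 6 averaged 1 to 2 FPKM and 7 averaged under 1 FPKM. The highest ligands were SEMA3C (16.7 FPKM), SEMA6D (6.13 FPKM) and SEMA5A (4.05 FPKM). The highest receptors were PLXNA1 (11.7 FPKM), NRP1 (6.63 FPKM) and PLXNB2 (5.54 FPKM), followed by PLXNA2 (5.44 FPKM). PLXNB2 and PLXNA2 exchanged places between the groups, since PLXNA2 averaged 6.29 FPKM with shRNA1, 3.53 FPKM with shRNA2 and 6.50 FPKM in scramble, and PLXNB2 averaged 5.55, 5.28 and 5.79 FPKM in the same groups. SEMA4C (4.01 FPKM) lay between SEMA5A and SEMA6A (3.78 FPKM) in this order, and its libraries, at 3.27 to 4.74 FPKM, overlapped those of both neighbours.

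**Figure D1:**
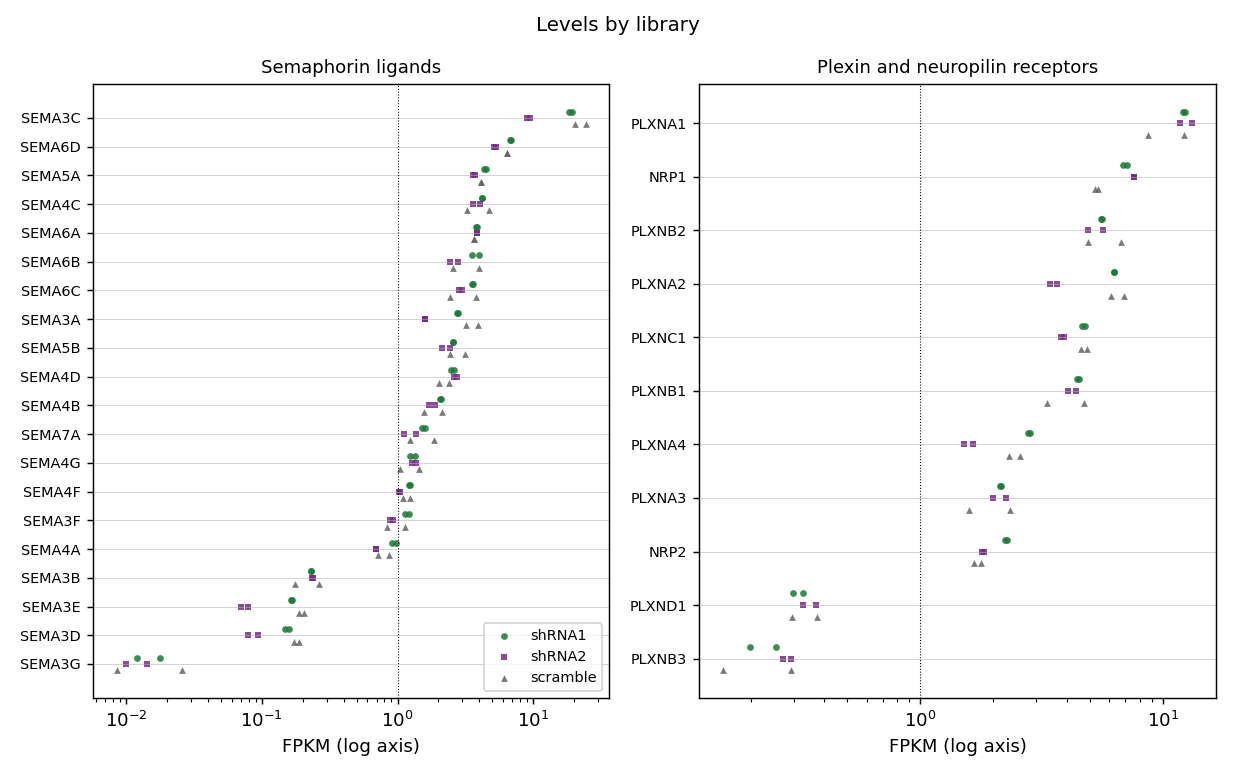
Level in FPKM (log axis) of the 20 semaphorin genes (left) and the 11 receptor genes (right) in each of the 6 libraries, ordered by mean; circles are shRNA1, squares shRNA2 and triangles scramble, and the dotted line marks 1 FPKM, the limit for testing. SEMA3C, at 9.02 to 24.4 FPKM, lies above all other ligands. The squares of SEMA3C, SEMA3A, SEMA3E, SEMA3D, PLXNA2 and PLXNA4 lie left of both other groups, as do, by less, those of SEMA6D, SEMA5A, SEMA4F, SEMA4A and PLXNC1.

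Among the secreted ligands, SEMA3C and SEMA3A were lower with shRNA2 than in scramble. SEMA3C guides cortical axons that cross the corpus callosum in mice, and SEMA3A repels cortical axons through NRP1. SEMA3C stood at 18.3 and 19.2 FPKM with shRNA1, 9.02 and 9.38 FPKM with shRNA2, and 24.4 and 20.1 FPKM in scramble. All 4 hairpin libraries lay below both scramble libraries, and both shRNA2 libraries lay below both shRNA1 libraries. The shRNA2 mean of 9.20 ± 0.253 FPKM was 0.413 times the scramble mean of 22.3 ± 3.05 FPKM (SD, n = 2 each). SEMA3C fell with shRNA2, with a log2 fold change of -1.19 ± 0.097 (SE; limma with Benjamini-Hochberg adjustment over all tested genes, adjusted p = 0.0353). With shRNA1 its log2 fold change was -0.23 ± 0.097 (adjusted p = 0.591), which did not pass.

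SEMA3A stood at 2.78 and 2.72 FPKM with shRNA1, 1.60 and 1.59 FPKM with shRNA2, and 3.90 and 3.18 FPKM in scramble. The 3 groups did not overlap, and their order was that of SEMA3C. SEMA3A fell with shRNA2, with a log2 fold change of -0.81 ± 0.088 (limma with Benjamini-Hochberg adjustment, adjusted p = 0.0494), and stood at -0.27 ± 0.088 with shRNA1 (adjusted p = 0.477). Its shRNA2 mean was 0.449 times its scramble mean, near the 0.413 times of SEMA3C.

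The other 5 class 3 genes were at or under about 1 FPKM. SEMA3E, which can bind PLXND1 with no neuropilin, had 0.168 and 0.164 FPKM with shRNA1, 0.0706 and 0.0797 FPKM with shRNA2, and 0.187 and 0.203 FPKM in scramble. SEMA3D had 0.148 and 0.158 FPKM with shRNA1, 0.0791 and 0.0941 FPKM with shRNA2, and 0.188 and 0.173 FPKM in scramble. Both shared the order of SEMA3C and SEMA3A, with shRNA2 lowest and no overlap between groups, and were not tested. At their GENCODE v29 exon lengths these levels stand for about 50 to 132 reads of SEMA3E and 53 to 108 reads of SEMA3D. Neither gene came out in whole reads at these lengths, so the numbers are approximate. SEMA3G, at 2 to 10 reads a library, SEMA3B, at 0.175 to 0.265 FPKM, and SEMA3F, at 0.838 to 1.21 FPKM, overlapped between shRNA2 and scramble.

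SEMA3C held the largest part of the summed ligand level in scramble. The 20 ligands summed to 61.5 and 62.4 FPKM with shRNA1, 46.1 and 44.3 FPKM with shRNA2, and 62.3 and 64.7 FPKM in scramble. SEMA3C held 29.8% and 30.7% of this sum with shRNA1, 19.6% and 21.1% with shRNA2, and 39.3% and 31.1% in scramble. Without it the sum was 43.1 and 43.2 FPKM with shRNA1, 37 and 35 FPKM with shRNA2, and 37.8 and 44.6 FPKM in scramble, so that shRNA2 was still lowest.

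No membrane-bound semaphorin passed the test in any of the 4 comparisons with all 3 groups in the fit. SEMA6D, a ligand of PLXNA1, had 6.71 and 6.85 FPKM with shRNA1, 5.27 and 5.15 FPKM with shRNA2, and 6.39 and 6.38 FPKM in scramble. Both shRNA2 libraries lay below the other 4, at a log2 fold change of -0.25 ± 0.048 against scramble (limma with Benjamini-Hochberg adjustment, adjusted p = 0.1). Against shRNA1 its log2 fold change with shRNA2 was -0.33 ± 0.048 (adjusted p = 0.128), which passed when limma was fitted on the hairpin libraries alone (adjusted p = 0.0434). SEMA5A, which carries thrombospondin repeats, had 4.30 and 4.47 FPKM with shRNA1, 3.62 and 3.71 FPKM with shRNA2, and 4.10 and 4.11 FPKM in scramble, again with shRNA2 lowest (-0.13 ± 0.051, adjusted p = 0.259). SEMA4D, the ligand of PLXNB1, went the other way. It had 2.48 and 2.60 FPKM with shRNA1, 2.74 and 2.60 FPKM with shRNA2, and 2.04 and 2.37 FPKM in scramble, so that all 4 hairpin libraries lay above scramble (0.20 ± 0.074 with shRNA2, adjusted p = 0.247, and 0.15 ± 0.074 with shRNA1, adjusted p = 0.667).

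SEMA5B, a relative of SEMA5A, had 2.57 and 2.54 FPKM with shRNA1, 2.45 and 2.13 FPKM with shRNA2, and 2.45 and 3.14 FPKM in scramble (-0.20 ± 0.107 with shRNA2, adjusted p = 0.372, and -0.09 ± 0.107 with shRNA1, adjusted p = 0.918). SEMA4G had 1.24 and 1.35 FPKM with shRNA1, 1.37 and 1.28 FPKM with shRNA2, and 1.05 and 1.44 FPKM in scramble (0.05 ± 0.101 with shRNA2, adjusted p = 0.799, and 0.04 ± 0.101 with shRNA1, adjusted p = 0.974). The scramble replicates spanned all 4 hairpin values of SEMA4G and 3 of the 4 of SEMA5B. The other tested ligands of classes 4 to 7 (SEMA4B, SEMA4C, SEMA4F, SEMA6A, SEMA6B, SEMA6C and SEMA7A) ranged from -0.21 to 0.06 with shRNA2 and from 0.02 to 0.18 with shRNA1 on the log2 scale, and SEMA4A was at 0.693 to 0.968 FPKM, under the limit.

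Among the receptors, NRP1 was higher and PLXNA2 lower with shRNA2 than in scramble. NRP1, the neuropilin that binds SEMA3A and also the growth factor VEGF, had 7.07 and 6.86 FPKM with shRNA1, 7.60 and 7.62 FPKM with shRNA2, and 5.38 and 5.25 FPKM in scramble. All 4 hairpin libraries lay above both scramble libraries, and shRNA2 lay above shRNA1. NRP1 rose with shRNA2, with a log2 fold change of 0.45 ± 0.048 (limma with Benjamini-Hochberg adjustment, adjusted p = 0.0489), and stood at 0.33 ± 0.048 with shRNA1 (adjusted p = 0.264). NRP2, which favours SEMA3F and SEMA3C as ligands, had 2.27 and 2.23 FPKM with shRNA1, 1.79 and 1.83 FPKM with shRNA2, and 1.78 and 1.67 FPKM in scramble. Here shRNA1 was the highest group (0.25 ± 0.058, adjusted p = 0.363), and shRNA2 was just above scramble (0.04 ± 0.058, adjusted p = 0.714).

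PLXNA2, a receptor of SEMA6A and, with a neuropilin, of class 3 ligands, had 6.30 and 6.28 FPKM with shRNA1, 3.64 and 3.43 FPKM with shRNA2, and 6.08 and 6.92 FPKM in scramble. The shRNA2 libraries lay far below the other 4, while shRNA1 lay between the scramble replicates. PLXNA2 fell with shRNA2, with a log2 fold change of -0.72 ± 0.072 (limma with Benjamini-Hochberg adjustment, adjusted p = 0.0486), and stood at -0.04 ± 0.072 with shRNA1 (adjusted p = 0.952). PLXNA4, which shares SEMA6A and SEMA3A as ligands, had 2.83 and 2.77 FPKM with shRNA1, 1.64 and 1.51 FPKM with shRNA2, and 2.31 and 2.57 FPKM in scramble. The groups did not overlap, with shRNA1 above and shRNA2 below scramble, but neither difference passed (-0.42 ± 0.068 with shRNA2, adjusted p = 0.0805, and 0.14 ± 0.068 with shRNA1, adjusted p = 0.646). The shRNA2 mean was 0.544 times the scramble mean for PLXNA2 and 0.646 times for PLXNA4.

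The most abundant plexin did not follow PLXNA2. PLXNA1 had 12.1 and 12.3 FPKM with shRNA1, 13.2 and 11.7 FPKM with shRNA2, and 8.64 and 12.2 FPKM in scramble, so the groups overlapped and scramble replicate 1 stood alone at the low end (0.25 ± 0.157 with shRNA2, adjusted p = 0.445, and 0.23 ± 0.157 with shRNA1, adjusted p = 0.785). PLXNB2, a plexin of cortical progenitors in mice, had 5.53 and 5.58 FPKM with shRNA1, 5.66 and 4.89 FPKM with shRNA2, and 4.89 and 6.70 FPKM in scramble, with all 4 hairpin libraries inside the scramble range (-0.10 ± 0.14 with shRNA2, adjusted p = 0.719, and -0.04 ± 0.14 with shRNA1, adjusted p = 0.981). PLXNC1, the receptor of SEMA7A, was the remaining receptor with both shRNA2 libraries below scramble (-0.24 ± 0.054, limma with Benjamini-Hochberg adjustment, adjusted p = 0.129). PLXNA3 and PLXNB1 overlapped between each hairpin and scramble, and PLXND1, at 0.295 to 0.374 FPKM, and PLXNB3, at 0.154 to 0.294 FPKM, were under the limit. The 11 receptors summed to 47.8 and 48 FPKM with shRNA1, 44.7 and 41.4 FPKM with shRNA2, and 39 and 47.9 FPKM in scramble, which overlap.

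**Figure D2:**
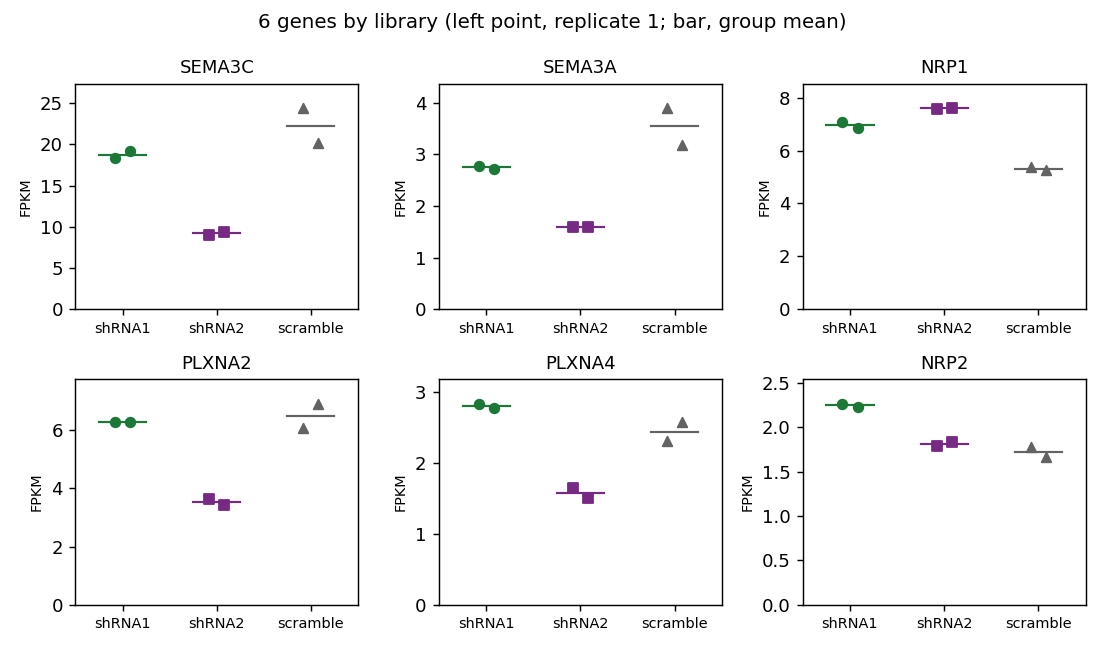
FPKM of SEMA3C, SEMA3A, NRP1, PLXNA2, PLXNA4 and NRP2 in each library (points) with the group mean (bar), for shRNA1, shRNA2 and scramble. The shRNA2 points are lowest for SEMA3C, SEMA3A, PLXNA2 and PLXNA4 and highest for NRP1, and shRNA1 is highest for PLXNA4 and NRP2.

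Against scramble, 4 of the 24 tested genes passed with shRNA2, of which 3 fell (SEMA3C, SEMA3A and PLXNA2) and 1 rose (NRP1). Over all tested genes 0.628% were called in this comparison, 0.44% as lower and 0.187% as higher. The shRNA2 libraries did not overlap scramble for 12 of the 24, 8 lower and 4 higher. Over all tested genes 47.6% did not overlap, 34.4% lower and 13.3% higher, so these counts were near the background. The median log2 fold change was -0.09 over the 15 tested ligands and 0.04 over the 9 tested receptors, beside -0.06 over all tested genes.

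The 4 calls lay close to the threshold: 0 of the 24 were called with no filter on low values or with only these groups in the fit. With 1 library left out, which leaves a group with a single library, the number called moved for the 24 and for all tested genes alike. PLXNA2 and SEMA3C were called with median-of-ratios scaling, SEMA3C alone without a trend, and NRP1 and PLXNA2 after quantile normalization, where 37 of all genes were higher and 34 lower, against 34 and 80 without it.

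With shRNA1, 0 of the 24 passed against scramble with limma, and 3 had an unadjusted p under 0.05 (NRP1 and NRP2 higher, SEMA3A lower). Of all tested genes 0.033% were called and 8.97% had an unadjusted p under 0.05. The median was 0.07 over the ligands and 0.14 over the receptors, beside -0.0028 over all tested genes. In the knockdown comparison, the mean of both hairpins against scramble, 0 of the 24 passed with limma and 7 had an unadjusted p under 0.05, while 0.0826% of all tested genes were called and 13.8% had an unadjusted p under 0.05. Its smallest p-values were those of NRP1 (log2 fold change 0.39 ± 0.042, adjusted p = 0.0844), SEMA3C (-0.71 ± 0.084, adjusted p = 0.0914) and SEMA3A (-0.54 ± 0.077, adjusted p = 0.115). These 3 comparisons share the scramble libraries and are not independent of each other.

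**Figure D3:**
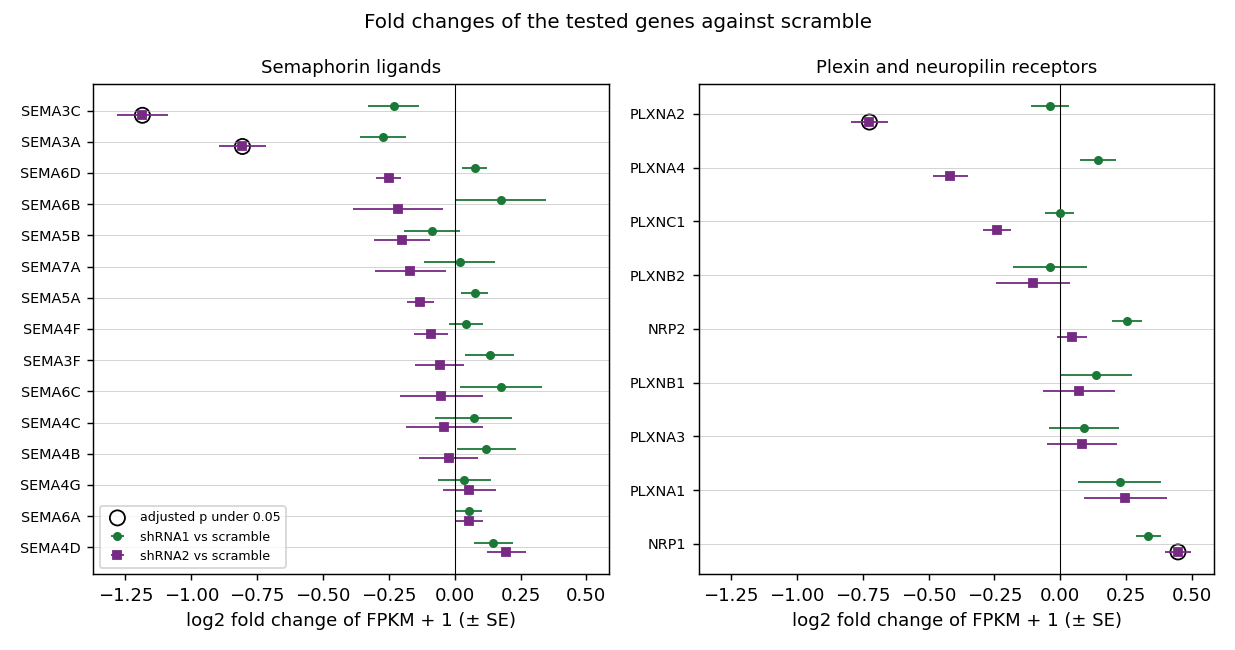
Log2 fold change of FPKM + 1 (± SE) of the 15 tested ligands (left) and 9 tested receptors (right), for shRNA1 (circles) and shRNA2 (squares) against scramble; rings mark an adjusted p under 0.05. SEMA3C at -1.19, SEMA3A at -0.81 and PLXNA2 at -0.72 stand apart at the low end with shRNA2, and NRP1 at 0.45 at the high end.

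The hairpins differed most in the same genes that fell with shRNA2, together with PLXNA4. In shRNA2 against shRNA1 the log2 fold changes were -0.95 ± 0.097 for SEMA3C, -0.69 ± 0.072 for PLXNA2, -0.56 ± 0.068 for PLXNA4 and -0.53 ± 0.088 for SEMA3A. None of the 24 passed with limma (adjusted p = 0.0976, 0.0976, 0.1 and 0.137 for these genes), although 8 had an unadjusted p under 0.05. Of all tested genes 0% were called and 16.1% had an unadjusted p under 0.05. This fit used 1 estimate of the spread for all 3 groups, and the scramble replicates were the least alike. Fitted on the hairpin libraries alone, the comparison called 5 of the 24, all lower with shRNA2 (PLXNA2, PLXNA4, SEMA3A, SEMA3C and SEMA6D, adjusted p = 0.041 to 0.0434 with limma), and 957 of all tested genes. NRP1 differed between the hairpins by 0.11 ± 0.048 (adjusted p = 0.339), a difference that did not pass. The differences of SEMA4D (0.05), SEMA4G (0.02) and PLXNA1 (0.02) were smaller than their SE.

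Other genes of the pathway were taken from lists of binding partners and of signal transducers. Of 10 co-receptors and other binding partners, 7 were tested and 0 passed with limma in any of the 4 comparisons. With shRNA2 their median was -0.14, beside -0.06 over all tested genes, and 1 of the 7 had an unadjusted p under 0.05, against 19.2% of all tested genes. CHL1, a cell adhesion molecule that joins class 3 receptor complexes, had 2.24 and 2.31 FPKM with shRNA1, 1.58 and 1.72 FPKM with shRNA2, and 2.43 and 2.12 FPKM in scramble (shRNA2 -0.30 ± 0.073, adjusted p = 0.14). NRCAM, a relative that associates with neuropilins, lay higher in all 4 hairpin libraries (7.01 to 7.39 FPKM) than in scramble (6.63 and 6.06 FPKM), at 0.16 in the knockdown comparison (adjusted p = 0.277). L1CAM, which binds NRP1, had 16.2 and 16 FPKM with shRNA1, 12.6 and 12.1 FPKM with shRNA2, and 12.1 and 15.4 FPKM in scramble. CNTN2 lay lower in all 4 hairpin libraries (1.22 to 1.34 FPKM) than in scramble (1.42 and 1.88 FPKM). Its log2 fold change in the knockdown comparison was -0.20 ± 0.085 (limma, adjusted p = 0.391).

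Of 27 signal transducers, 22 were tested and 0 passed with limma in any of the 4 comparisons. With shRNA2 against scramble 21 of the 22 values were below 0, with a median of -0.16, against 67.7% of all tested genes. Both libraries lay below scramble for 17 of 22, against 34.4% of all tested genes, and 7 had an unadjusted p under 0.05, against 19.2%. With shRNA1 the median was 0.01, with 0 at an unadjusted p under 0.05. CDK5R1, the activator of the kinase CDK5 that acts downstream of SEMA3A, had 18.3 and 17.7 FPKM with shRNA1, 13.1 and 12.2 FPKM with shRNA2, and 17.1 and 18.7 FPKM in scramble. Its shRNA2 libraries lay below the other 4 (-0.47 ± 0.066, limma with Benjamini-Hochberg adjustment, adjusted p = 0.0641). RHOA, a GTPase of growth cone collapse, stood at -0.19 ± 0.052 with shRNA2 (adjusted p = 0.162) and -0.13 ± 0.052 with shRNA1 (adjusted p = 0.57), and GSK3B, a kinase of the same pathway, at -0.21 ± 0.061 in shRNA2 against shRNA1 (adjusted p = 0.23). DPYSL2 (CRMP2), the microtubule-binding mediator of SEMA3A signals, was the most abundant tested gene of the list, at 72.8 to 85.1 FPKM.

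**Figure D4:**
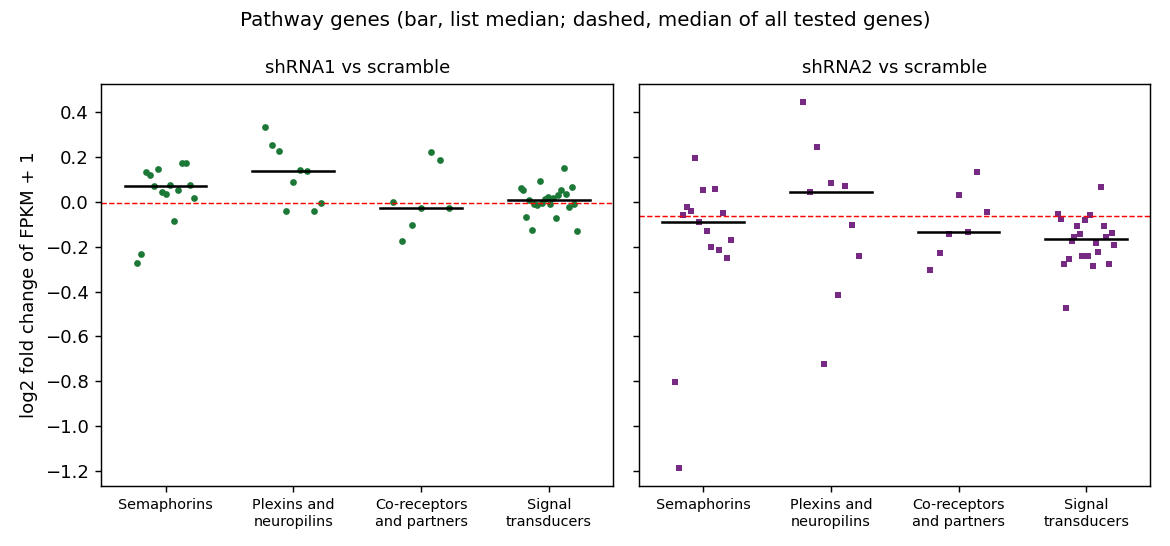
Log2 fold change of FPKM + 1 of each tested gene (points) in 4 lists, for shRNA1 (left) and shRNA2 (right) against scramble; bars are list medians and the dashed line is the median of all tested genes. With shRNA2 the signal transducers have a median of -0.16 and lie below 0 in 21 of 22 cases, while the semaphorins and receptors spread from -1.19 to 0.45.

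The class 3 genes that were lower with shRNA2 share a stretch of chromosome 7 (GRCh38.p14, RefSeq). SEMA3C lies at 80742538 to 80922389, SEMA3E at 83363238 to 83649139, SEMA3A at 83955777 to 84492725 and SEMA3D at 84995553 to 85250243, all on the minus strand. All 4 were lower in every shRNA2 library than in every scramble library, while SEMA3B, SEMA3F and SEMA3G on chromosome 3 overlapped. Of all tested genes 34.4% were lower in this way, and SEMA3G had only 2 to 10 reads a library. This grouping was seen in the values and was not tested. Of the 3 other protein-coding genes of this stretch with a row in the table, the calcium channel subunit CACNA2D1 had 1.39 and 1.48 FPKM with shRNA1, 1.30 and 1.27 FPKM with shRNA2, and 1.91 and 1.58 FPKM in scramble. PCLO, a presynaptic scaffold, had 5.89 and 6.03 FPKM with shRNA1, 5.21 and 5.37 FPKM with shRNA2, and 5.51 and 4.70 FPKM in scramble, where shRNA1 was highest and shRNA2 overlapped scramble. HGF was under 0.0175 FPKM in all libraries. Like the 4 semaphorins, CACNA2D1 was lower in both shRNA2 libraries than in both scramble libraries. HGF was lower too, but it lay under the worth of 3 reads on 1 kb of exon (0.0359 to 0.0643 FPKM). The order of its libraries can therefore not be read. PLXNA2 lies on chromosome 1 at 208022242 to 208244384, PLXNA4 on chromosome 7 at 132123340 to 132648688 and NRP1 on chromosome 10 at 33177493 to 33334667.

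The promoters of SEMA3C and PLXNA2 are shown because both genes fell with shRNA2 and have a RefSeq start at the outer end of the gene. Each line gives the 250 bases before that start, on the minus strand, with matches to the GC box GGGCGG in capitals (chr7:80922390-80922639 and chr1:208244385-208244634, GRCh38.p14).
SEMA3C: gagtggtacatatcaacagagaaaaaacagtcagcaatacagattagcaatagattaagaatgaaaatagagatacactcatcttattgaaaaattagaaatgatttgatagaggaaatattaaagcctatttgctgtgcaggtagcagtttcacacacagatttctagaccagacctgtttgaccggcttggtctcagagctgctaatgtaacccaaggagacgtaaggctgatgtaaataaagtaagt
PLXNA2: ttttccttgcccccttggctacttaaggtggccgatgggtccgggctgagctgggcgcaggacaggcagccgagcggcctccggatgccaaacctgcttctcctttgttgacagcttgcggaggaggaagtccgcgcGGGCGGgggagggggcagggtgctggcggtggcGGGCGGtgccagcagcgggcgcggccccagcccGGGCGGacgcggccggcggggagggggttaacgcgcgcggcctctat

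These windows were unlike each other. That of SEMA3C had 36.4% G and C and 2 CpG, and that of PLXNA2 had 72.4% and 27 CpG, beside medians of 58% and 11 over the windows of all 35116 RefSeq promoters. The GC box matched 3 times in PLXNA2 and 0 times in SEMA3C, on either strand, and is found in 42.6% of all windows. TATAAA (10.7% of all windows), CCAAT (32%) and CACGTG (6.34%) matched neither, on either strand. SEMA3C has another RefSeq start further inside the gene, which is not shown.

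Reads of overlapping genes bear on some members, since the strand setting of the counting is not given in the sources used here. In GENCODE v29, exons of MRPL43 on the opposite strand cover 22.3% of the exon bases of SEMA4G, and exons of SRPK3 on the same strand cover 20.4% of those of PLXNB3. For NRP1 an opposite transcript, AL121748.2, covers 4.87%. SEMA3C, SEMA3A, PLXNA2 and PLXNA4 share no exon base with another gene.

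Markers of other cell types moved with the hairpins, and their part in the values above was not tested. The 9 choroid plexus and cortical hem markers summed to 6.01 to 6.02 FPKM with shRNA1, 6.28 to 6.32 FPKM with shRNA2 and 20.7 to 22 FPKM in scramble. All 4 tested ones (TTR, RSPO2, RSPO3 and WNT8B) fell with shRNA2, and TTR, RSPO2 and WNT8B also fell with shRNA1. Of the untested ones, LMX1A, AQP1, CLIC6 and FOLR1 were lower in both shRNA2 libraries than in scramble. For this and the lists below, 34.4% of all tested genes were lower in this way. WNT2B went the other way, at 0.870 and 0.917 FPKM with shRNA2 and 0.796 and 0.748 FPKM in scramble. Between the hairpins, TTR had 0.0605 FPKM with shRNA2 and 0.641 FPKM with shRNA1 on average, and WNT8B had 2.80 FPKM with shRNA2 and 1.53 FPKM with shRNA1, and neither difference passed (limma, adjusted p = 0.137 for TTR and 0.0976 for WNT8B). The 7 Cajal-Retzius markers summed to 12.3 to 12.4 FPKM with shRNA1, 8.45 to 8.72 FPKM with shRNA2 and 11.4 to 11.6 FPKM in scramble. RELN, a secreted protein used as a marker of these cells, was the 1 tested marker of that list and supplied most of its sum. It fell with shRNA2, just under the threshold (limma, adjusted p = 0.0499). With shRNA1 RELN lay above scramble, at 9.35 and 9.33 FPKM against 8.01 and 8.09 FPKM, which did not pass (limma, adjusted p = 0.379). Of the untested markers of that list, TP73, EBF2 and CALB2 were lower in both shRNA2 libraries than in scramble, and LHX5 overlapped. EBF3 hardly parted, with nearest values of 0.556 FPKM with shRNA2 and 0.558 FPKM in scramble. LHX1 went the other way, at 0.217 and 0.188 FPKM with shRNA2 and 0.141 and 0.129 FPKM in scramble. The 7 interneuron markers summed to 94.1 to 96.5 FPKM with shRNA1, 75.9 to 79.7 FPKM with shRNA2 and 84 to 95.1 FPKM in scramble. This list was split, and none of its 6 tested markers passed with limma. DLX5, DLX6, GAD2 and the untested LHX6 were lower in both shRNA2 libraries than in scramble, and DLX1 and DLX2 overlapped. GAD1 went the other way, at 4.76 and 4.56 FPKM with shRNA2 and 4.34 and 4.15 FPKM in scramble. The 6 mesenchyme markers summed to 1.17 to 1.30 FPKM with shRNA1, 0.447 to 0.632 FPKM with shRNA2 and 5.65 to 6.41 FPKM in scramble. COL3A1, a fibrillar collagen and the 1 tested marker of that list, fell with both hairpins (-1.52 with shRNA1 and -2.03 with shRNA2). The oligodendrocyte markers, at 2.77 to 3.69 FPKM in all libraries, overlapped. In these bulk samples, fewer cells of a type and less RNA per cell cannot be told apart.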

How the data were processed

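Ribosomal RNA-depleted total RNA of 6 libraries was profiled. The authors deposited 1 FPKM value per gene and library, per the file headers. HISAT2 2.1.0 and featureCounts 2.0.1 are named in the submitters' processing notes, as are Trimmomatic 0.39, SAMtools 1.9 and the build GRCh38 (hg38). Neither the gene models used for counting nor the treatment of strand and multiple matches is stated. Totals were read from the step between low FPKM values at GENCODE v29 exon lengths. Reads came out whole within 0.01 in all 6 libraries for 17.2% of 27071 genes, so no count test was run. On 1 kb of exon, 1 read is worth 0.012 to 0.0214 FPKM; the limit of 3 reads, 0.0359 to 0.0643 FPKM, covers counting error only.

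Genes averaging 1 FPKM or more were tested on log2(FPKM + 1), which understates fold changes of low genes, with limma 3.58.1 (R 4.3.3). All 3 groups entered 1 fit with a trend of variance on level. P-values were adjusted by Benjamini-Hochberg over 18162 genes, and calls needed an adjusted p under 0.05. The script was tested on simulated data. Figures used Python 3.11.15 with matplotlib 3.10.9.

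The members and lists were chosen with earlier results of these data known. Named in full were called members, the 3 smallest p-values per direction and comparison, and the 3 highest ligands and receptors. PLXNC1, SEMA3D and SEMA3E were added after their values were seen. Of the pathway lists, the plan was to name the 3 genes with the smallest p per comparison, but only some of these are given. TYROBP of the microglial list was not analysed here. A planned comparison of protein sequences was not run. Alternatives were another pseudocount, other filters and scalings, no trend, a replicate block, fewer groups, each library left out, and, chosen after seeing the data, protein-coding genes alone.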

Additional observations from a re-analysis of the deposited data

How the results depend on the processing

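The calls were few and moved with the settings. With shRNA2 against scramble, 114 genes were called, of which 4 were semaphorin, plexin or neuropilin genes. These 2 counts became 0 and 0 with no filter on low values, 75 and 2 with median-of-ratios scaling, 71 and 2 with quantile normalization, 35 and 1 without a trend, and 1 and 0 with only the groups of the comparison. They ranged from 0 to 2418 and from 0 to 8 with 1 library left out, and all genes gave 261 at a mean of at least 5 FPKM. In the knockdown comparison, with 15 and 0 called, they became 35 and 2 at a mean of at least 5 FPKM, and ranged from 0 to 507 and from 0 to 4 with 1 library left out. All genes there gave 0 with no filter, 27 with median-of-ratios scaling and 30 with quantile normalization. With shRNA1, where 6 and 0 were called, all genes gave 2 with a pseudocount of 0.1, 0 with no filter, 3 at 5 FPKM, 0 with only the groups of the comparison and 0 to 1 with 1 library left out. For shRNA2 against shRNA1, with 0 and 0, the counts were 46 and 2 at 5 FPKM, 957 and 5 with only the groups of the comparison, and 0 to 1029 and 0 to 5 with 1 library left out. With a single library left in a group, that library was assumed to vary like the other groups. Protein-coding genes alone, chosen after the data were seen, gave 383 and 6 with shRNA2, 102 and 3 in the knockdown comparison, 22 and 0 with shRNA1, and 245 and 5 between the hairpins; fewer genes were tested.

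SEMA3C, SEMA3A, PLXNA2 and NRP1 kept their direction with shRNA2 under every alternative run, and with 1 library left out SEMA3C ranged from -1.32 to -1.05. Directions turned for values that had not passed. SEMA5A in the knockdown comparison was 0.0067 and PLXNB2 between the hairpins 0.0097 after quantile normalization. With 1 library left out, PLXNB2 ranged from -0.27 to 0.12 and SEMA4G from -0.080 to 0.17 in the knockdown comparison. With shRNA1 the ranges were -0.0027 to 0.45 for PLXNA1, -0.12 to 0.042 for PLXNA2, -0.23 to 0.15 for PLXNB2, -0.089 to 0.16 for SEMA4G and -0.22 to 0.046 for SEMA5B. With shRNA2 they were -0.30 to 0.089 for PLXNB2 and -0.071 to 0.18 for SEMA4G. Between the hairpins they were -0.057 to 0.10 for PLXNA1, -0.15 to 0.023 for PLXNB2 and -0.014 to 0.051 for SEMA4G. The cause was not tested.

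The labels number the replicates in each group and do not say that a number marks a shared culture or day. The differences between replicates 1 and 2 correlated across genes at -0.0077 (shRNA1 and scramble), -0.15 (shRNA2 and scramble) and 0.01 (shRNA2 and shRNA1), which gave no sign of pairing by number. A small shared effect could be missed in this way, so whether the numbers pair the samples is not known. With the replicate block, 0 genes were called with shRNA2 and 0 of the family, 1 in the knockdown comparison and 0 with shRNA1.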
